A study of Mus musculus with 24 samples.

Results

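The genes described here are 34 glycolysis and hypoxia response genes, out of 35770 named genes measured in murine bone marrow-derived macrophages (BMDMs). They were listed by their known roles, at a time when earlier results of these data were known. The list holds 24 genes of glucose uptake, glycolysis and the fate of pyruvate and lactate, and 10 genes of the hypoxia-inducible factor (HIF) system: 3 HIF subunits, 2 oxygen sensors and 5 other HIF targets. All 34 were listed in the data and passed the filter on low values, for which TPM (transcript abundance per gene, scaled to the same total in each library) had to be above 1 in at least 3 fitted libraries.

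BMDMs were grown from the bone marrow of C57BL/6 mice with M-CSF, and the progenitor suspension was divided evenly among the wells. They received control media or cancer conditioned media (CM) from LL2 cells, a Lewis lung carcinoma line, together with vehicle or 100 nM CDDO-Me for 24 h. The CM came from wild-type LL2 cells (WT CM), from LL2 cells without KEAP1 (KEAP1 KO CM) or from LL2 cells without NRF2 (NRF2 KO CM), so that the cancer cells carried the deletion while every macrophage had the same genotype. Each of the 8 groups had 3 libraries, each knockout was a single LL2 line, and CDDO-Me is a synthetic oleanane triterpenoid that activates NRF2 by binding KEAP1.

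Glycolysis breaks glucose down to pyruvate in the cytosol, and macrophages in an inflammatory state draw on it heavily. HIF-1α, made from Hif1a, is destroyed in the presence of oxygen after prolyl hydroxylases mark it, and when it escapes it pairs with ARNT and binds DNA at hypoxia response elements of many glycolysis genes. NRF2, which KEAP1 holds in check in a similar way, is best known for genes of redox balance and of the pentose phosphate pathway, a branch of glucose metabolism. Since HIF-1α is controlled largely as a protein, a transcript of Hif1a does not measure the activity of the factor.

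To show the DNA that hypoxia response elements are sought in, the promoter windows of the members with the largest CDDO-Me differences are printed. Each runs from 250 bases before to 50 bases after a RefSeq transcription start on GRCm38.p6, 5′ to 3′ on the strand of the gene. Capitals mark ACGTG or GCGTG, the core letters of a hypoxia response element, on either strand. CACGTG holds ACGTG on both strands and counts as 2 matches, and an E-box reads the same letters.
Slc2a1, chr4:119108495-119108794, plus strand: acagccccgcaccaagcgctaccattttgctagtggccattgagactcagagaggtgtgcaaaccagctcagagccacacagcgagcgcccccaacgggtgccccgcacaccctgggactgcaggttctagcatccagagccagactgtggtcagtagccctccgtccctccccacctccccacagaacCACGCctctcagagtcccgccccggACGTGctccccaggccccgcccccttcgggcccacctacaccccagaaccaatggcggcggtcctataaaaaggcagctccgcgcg
Hk3, chr13:55021336-55021635, minus strand: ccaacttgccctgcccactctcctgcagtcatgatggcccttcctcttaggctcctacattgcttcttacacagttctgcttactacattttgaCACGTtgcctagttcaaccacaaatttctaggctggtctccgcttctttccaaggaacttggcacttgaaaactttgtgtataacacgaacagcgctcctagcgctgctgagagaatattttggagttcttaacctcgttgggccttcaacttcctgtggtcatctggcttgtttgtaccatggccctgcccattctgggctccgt
Pfkp, chr13:6648722-6649021, minus strand: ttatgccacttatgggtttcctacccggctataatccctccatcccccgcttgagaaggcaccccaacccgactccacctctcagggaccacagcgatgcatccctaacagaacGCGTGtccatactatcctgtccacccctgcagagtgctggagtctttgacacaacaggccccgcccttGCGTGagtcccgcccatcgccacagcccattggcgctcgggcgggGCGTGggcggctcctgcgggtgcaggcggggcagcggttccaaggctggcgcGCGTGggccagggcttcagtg
Pfkfb3, chr2:11553880-11554179, minus strand: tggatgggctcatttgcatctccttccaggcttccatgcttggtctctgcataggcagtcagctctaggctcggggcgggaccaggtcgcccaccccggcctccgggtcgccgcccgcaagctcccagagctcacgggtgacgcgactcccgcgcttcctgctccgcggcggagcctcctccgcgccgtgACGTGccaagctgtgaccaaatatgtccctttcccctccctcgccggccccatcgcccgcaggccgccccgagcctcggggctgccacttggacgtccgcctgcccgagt
Pfkfb3, chr2:11502041-11502340, minus strand: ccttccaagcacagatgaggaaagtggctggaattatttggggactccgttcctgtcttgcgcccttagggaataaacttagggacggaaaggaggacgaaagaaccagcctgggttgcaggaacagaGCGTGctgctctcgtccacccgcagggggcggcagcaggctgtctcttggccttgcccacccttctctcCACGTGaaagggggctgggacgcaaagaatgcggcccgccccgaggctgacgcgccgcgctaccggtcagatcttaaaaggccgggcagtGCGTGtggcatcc
Pkm, chr9:59656977-59657276, plus strand: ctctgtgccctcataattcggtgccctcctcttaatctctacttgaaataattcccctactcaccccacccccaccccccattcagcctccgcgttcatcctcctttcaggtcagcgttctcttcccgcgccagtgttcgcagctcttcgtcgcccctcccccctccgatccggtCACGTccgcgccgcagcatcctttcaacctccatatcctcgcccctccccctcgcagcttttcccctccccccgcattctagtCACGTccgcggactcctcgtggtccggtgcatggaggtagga
Adm, chr7:110627407-110627706, plus strand: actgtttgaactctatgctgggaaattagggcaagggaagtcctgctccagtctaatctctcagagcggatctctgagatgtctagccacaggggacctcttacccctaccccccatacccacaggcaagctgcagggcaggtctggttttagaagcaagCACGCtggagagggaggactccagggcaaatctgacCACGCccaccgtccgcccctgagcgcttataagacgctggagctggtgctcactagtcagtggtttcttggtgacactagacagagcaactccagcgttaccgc
Eno2, chr6:124769624-124769923, minus strand: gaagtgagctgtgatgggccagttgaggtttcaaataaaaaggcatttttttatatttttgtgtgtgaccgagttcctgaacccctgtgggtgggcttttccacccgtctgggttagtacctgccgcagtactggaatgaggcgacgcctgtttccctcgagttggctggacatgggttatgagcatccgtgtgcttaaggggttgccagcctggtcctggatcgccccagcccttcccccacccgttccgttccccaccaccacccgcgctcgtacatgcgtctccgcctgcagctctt

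Of the 34 members, 31 had at least 1 window in the RefSeq set. The core letters were in at least 1 window of 28 of the 31, against 46.7% of all 27025 gene symbols. By window, 36 of 44 member windows had a match, against 43.8% of all 32851 windows of the same length. Pfkp had 4 matches, at −136, −68, −23 and +30 from its start, and the downstream start of Pfkfb3 had matches at −122, −53, −52 and +38, while Hk3 had 1, at −156. Eno2 had none in this window. Pkm had 2 matches in the window shown and 0 in a second one, chr9:59656326-59656625 on the plus strand, which is not printed. These matches describe letters and are neither sites nor causes. Several listed genes are textbook HIF targets, and the part of that choice in the share was not tested. No binding was measured in these samples.

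TPM of the 24 libraries sum to nearly the same total, so that the number of reads behind a value is unknown. Both replicate 3 libraries of NRF2 KO CM stood apart, with 15702 genes above 0 under vehicle and 16299 under CDDO-Me, against as many as 18993 elsewhere. The vehicle library of that pair was the lowest of all 24 libraries for 14 of the 34 members, among them Slc2a1, Slc16a3, Hk3, Aldoa, Tpi1, Pgk1 and Ldha. Results were therefore computed with and without these 2 libraries. The summed level of 8 macrophage markers was between 15470 and 42420 TPM in every library. The summed level of 10 fibroblast markers was 708 to 1270 TPM in WT CM/vehicle and 291 to 760 TPM in WT CM/CDDO-Me, and 976 to 1635 against 248 to 985 TPM in KEAP1 KO CM. In media this sum was 1126 to 1798 TPM under vehicle and 1131 to 2623 TPM under CDDO-Me. In NRF2 KO CM it was 1007 to 2487 against 613 to 1878 TPM. None of the 10 was at 0 in a group, and the part of this sum in the results below was not tested. Of 4 epithelial markers, Cdh1 made up nearly all of the 3.10 to 7.15 TPM summed in WT CM/vehicle and KEAP1 KO CM/vehicle, while Epcam was at or near 0. The summed level of 6 neutrophil markers was 11.3 to 37.0 TPM in WT CM/vehicle and 36.6 to 63.5 TPM in WT CM/CDDO-Me. It was 15.5 to 23.4 TPM in KEAP1 KO CM under vehicle and 71.8 to 78.8 TPM under CDDO-Me. In media it went from 14.6 to 26.8 TPM up to 30.5 to 46.9 TPM, and in NRF2 KO CM from 13.6 to 32.0 TPM to 31.5 to 71.0 TPM. At most 1 of the 6 was at 0 in a group, and the part of these markers was not tested either. Fewer cells of a type and less RNA per cell cannot be told apart in these libraries. Some glycolysis genes, Gapdh above all, have many near-identical pseudogenes, so that the split of reads among copies adds uncertainty to their levels.

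Levels below are TPM after scaling by trimmed means of M values, in the order of replicates 1, 2 and 3. Differences are log2 fold changes of scaled TPM plus 1, with the standard error (SE) and the Benjamini-Hochberg adjusted p of limma over all genes tested, two-sided, with 3 libraries in each group. A gene is called higher or lower where the adjusted p is under 0.05. In the heat map of the 34 members, the columns for CDDO-Me in WT CM and in KEAP1 KO CM hold most of the calls. There were 13 members without a call in any of the 13 comparisons: Slc16a3, Pfkl, Tpi1, Gapdh, Pgk1, Pgam1, Eno1, Epas1, Arnt, Egln1, Egln3, P4ha1 and Ankrd37.

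**Figure D1:**
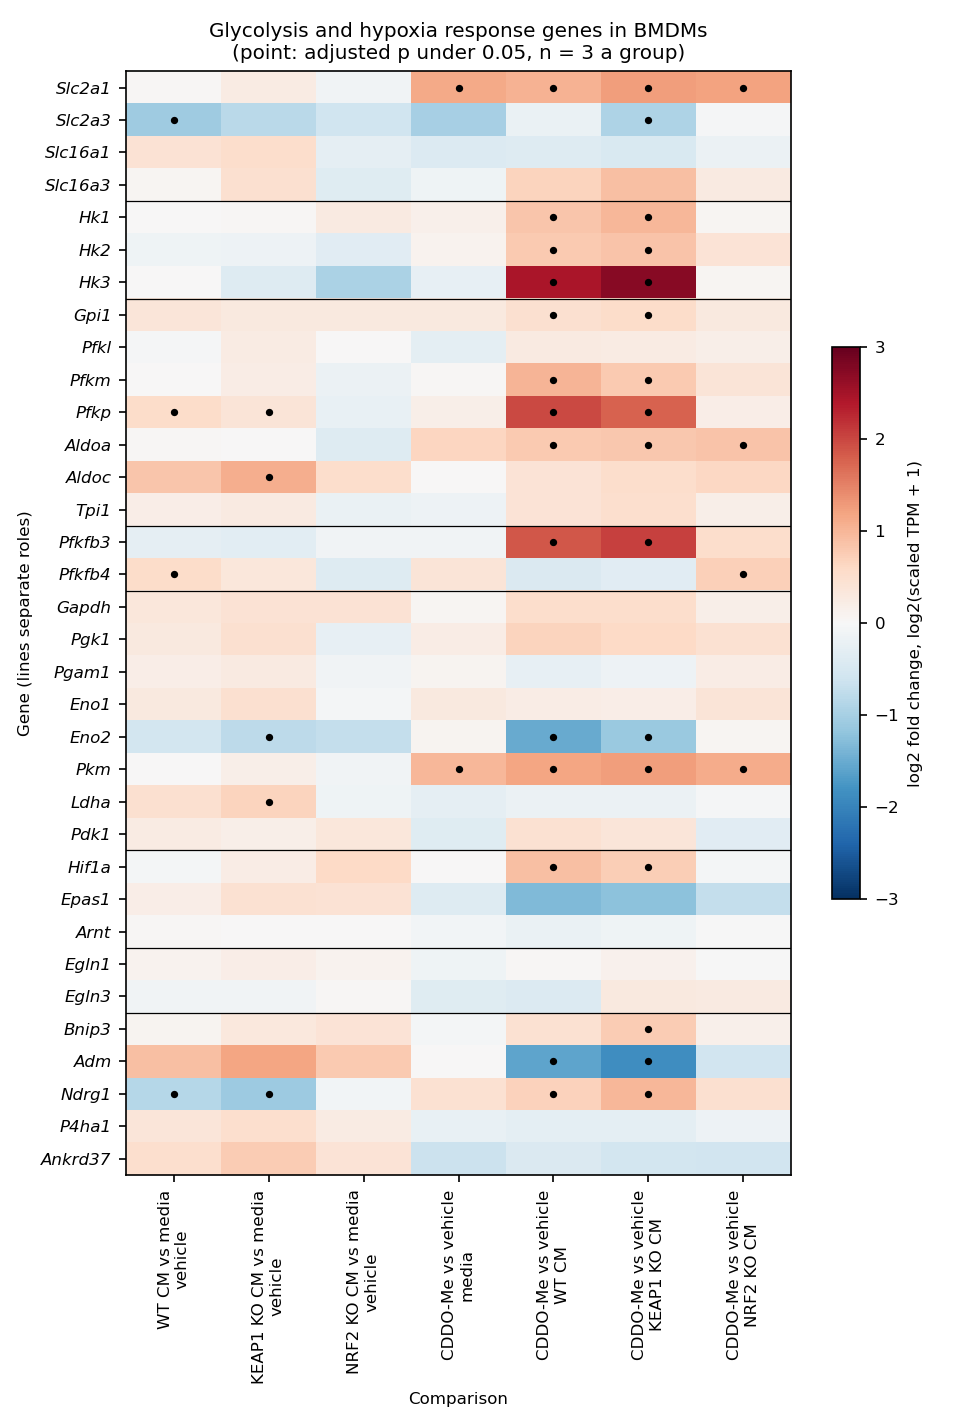
Log2 fold changes (colour, from −3 to 3) of 34 glycolysis and hypoxia response genes (rows, ordered by role) in 7 comparisons (columns), each of 3 libraries against 3; black points mark an adjusted p under 0.05. The points number 4, 5 and 0 for the 3 CM comparisons and 2, 14, 16 and 4 for CDDO-Me (media first, then WT, KEAP1 KO and NRF2 KO CM).

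The first comparison asked how CM alone altered these genes in BMDMs. WT CM changed 4 of 34, beside 7.34% of all 13661 genes tested: 2 were higher than in media (Pfkp and Pfkfb4, beside 4.33% of all genes called higher) and 2 lower (Slc2a3 and Ndrg1, beside 3.02% called lower). KEAP1 KO CM changed 5 of 34 beside 7.96%, with Pfkp, Aldoc and Ldha higher (beside 4.65%) and Eno2 and Ndrg1 lower (beside 3.31%). With NRF2 KO CM none passed with limma, beside 0.00732% of all genes (1 gene); at an unadjusted p under 0.05 there were 7 members, and without the 2 replicate 3 libraries none passed either. The median difference of the members was 0.09 for WT CM, 0.26 with KEAP1 KO CM and −0.10 with NRF2 KO CM, with all genes close to 0. Groups did not overlap for 15 members with WT CM (beside 34.6% of all genes), 20 with KEAP1 KO CM (beside 35.9%) and 10 with NRF2 KO CM (beside 12.8%). The CM comparisons share the 3 media/vehicle libraries, so their values are not independent. Leaving out any 1 of the 6 compared libraries lowered the count to 1 or 2 for WT CM and to 2 or 3 for KEAP1 KO CM.

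Pfkp encodes the platelet-type phosphofructokinase, an enzyme of the committed step of glycolysis (chr13:6629798-6698970, minus strand, GRCm39). It stood at 49.5, 45.2 and 41.6 TPM in media/vehicle and at 69.5, 68.3 and 64.2 TPM in WT CM/vehicle. The groups did not overlap, and the log2 fold change was 0.56 (SE 0.10, adjusted p = 0.000729 with limma). In KEAP1 KO CM/vehicle Pfkp was 58.2, 67.1 and 53.0 TPM, again above each media library (0.38, SE 0.10, adjusted p = 0.0179 with limma). This last call was lost with only the compared groups in the fit and without 4 of the 6 compared libraries in turn. NRF2 KO CM/vehicle libraries stood lowest, at 38.6, 40.8 and 37.5 TPM, and WT CM exceeded them by 0.77 (SE 0.10, adjusted p = 2.23e-05 with limma).

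Pfkfb4, one of the bifunctional enzymes that set the level of fructose 2,6-bisphosphate, was 36.7, 35.8 and 41.2 TPM in media/vehicle and 53.2, 55.9 and 59.6 TPM in WT CM/vehicle. The rise was 0.56 (SE 0.16, adjusted p = 0.0435 with limma), and it did not pass under 4 other settings of the fit, or without any 1 of the 6 compared libraries. Against NRF2 KO CM/vehicle, at 37.6, 33.1 and 18.8 TPM, WT CM was higher by 0.95 (SE 0.16, adjusted p = 0.000751 with limma). The library at 18.8 TPM is replicate 3. Its relative Pfkfb3, which favours synthesis of the same activator, was at 19.9 to 26.6 TPM in all vehicle groups.

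Ldha, the lactate dehydrogenase subunit that favours lactate, rose with KEAP1 KO CM. Its levels were 637, 658 and 634 TPM in media/vehicle, 887, 923 and 903 TPM in WT CM/vehicle, and 1031, 1035 and 995 TPM in KEAP1 KO CM/vehicle. These 3 groups did not overlap at any point. The KEAP1 KO CM difference from media was 0.67 (SE 0.19, adjusted p = 0.0375 with limma), whereas that of WT CM, 0.49 (SE 0.19), did not pass (adjusted p = 0.155 with limma). The KEAP1 KO CM call was lost without any 1 of the 6 compared libraries, without scaling and without the filter, 8 of its 17 alternatives. NRF2 KO CM/vehicle was at 708, 735 and 395 TPM, the last being replicate 3. Without both replicate 3 libraries of NRF2 KO CM, Ldha passed for WT CM as well. WT CM exceeded NRF2 KO CM by 0.61 (SE 0.19, adjusted p = 0.047 with limma), a call that 6 other settings lost. It was also lost without any 1 of the WT CM/vehicle libraries and without replicate 3 of NRF2 KO CM/vehicle, for 10 of 17 alternatives in all.

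Aldoc, the brain-type aldolase, was scarce, at 7.29, 5.65 and 10.7 TPM in media/vehicle and 15.9, 12.1 and 27.0 TPM in KEAP1 KO CM/vehicle (1.09, SE 0.27, adjusted p = 0.0131 with limma). It made up 0.870 to 2.16% of the TPM of Aldoa and Aldoc there, since Aldoa stood at 1224 to 1405 TPM in the vehicle libraries other than replicate 3 of NRF2 KO CM, at 558 TPM. Eno2, the neuronal enolase, was 28.5, 27.8 and 35.8 TPM in media/vehicle and 14.5, 19.1 and 18.3 TPM in KEAP1 KO CM/vehicle (−0.79, SE 0.20, adjusted p = 0.0171 with limma). WT CM/vehicle lay between, at 20.8, 17.7 and 23.3 TPM, without a call.

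Slc2a3, the glucose transporter GLUT3, was the minor transporter at 6.79, 5.95 and 8.21 TPM in media/vehicle, and it was 3.87, 1.90 and 2.87 TPM in WT CM/vehicle (−1.06, SE 0.31, adjusted p = 0.039 with limma). That call was lost without the filter, with a pseudocount of 0.1 and without 5 of the 6 compared libraries in turn. Slc2a1, the main glucose transporter GLUT1, stood at 32.8, 32.7 and 32.1 TPM in media/vehicle and 32.9, 37.3 and 30.1 TPM in WT CM/vehicle, and these ranges overlapped. Of the monocarboxylate transporters, Slc16a1 (MCT1) was higher with WT CM, at 9.18, 9.58 and 10.4 TPM, than with NRF2 KO CM, at 6.69, 6.80 and 3.91 TPM (0.69, SE 0.18, adjusted p = 0.016 with limma). The library at 3.91 TPM is replicate 3. This call was lost without scaling, with only the compared groups, and without replicate 3 of WT CM/vehicle or of NRF2 KO CM/vehicle. In media/vehicle Slc16a1 was 6.59, 6.90 and 7.43 TPM, below each WT CM/vehicle library and without a call.

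Among the HIF system, only Ndrg1 passed with CM. Ndrg1, a stress gene that responds to hypoxia in many cells, was 48.0, 39.7 and 50.9 TPM in media/vehicle, 25.0, 21.3 and 28.6 TPM in WT CM/vehicle and 21.0, 20.3 and 21.4 TPM in KEAP1 KO CM/vehicle. Both CM groups lay wholly below media, by −0.87 (SE 0.23, adjusted p = 0.0241) and −1.10 (SE 0.23, adjusted p = 0.00377) with limma. The WT CM call was lost without replicate 1 or 3 of media/vehicle and without replicate 1 or 2 of WT CM/vehicle. That of KEAP1 KO CM was kept in all 17 alternatives. NRF2 KO CM/vehicle, at 44.3, 38.3 and 46.9 TPM, overlapped media, and WT CM was below it by −0.77 (SE 0.23, adjusted p = 0.036 with limma); that call was lost without the replicate 3 libraries. Adm, which encodes the vasodilator peptide adrenomedullin, is named here after its values were seen. It ran the other way, at 16.3, 18.1 and 11.0 TPM in media/vehicle against 35.2, 39.5 and 17.0 TPM in WT CM/vehicle and 43.0, 44.6 and 21.8 TPM in KEAP1 KO CM/vehicle. Replicate 3 was the lowest in each of these 3 groups, and the differences of 0.91 (SE 0.46, adjusted p = 0.32) and 1.18 (SE 0.46, adjusted p = 0.147) did not pass with limma.

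With the replicate number as a block in the fit, WT CM against media gained Adm, Aldoc, Ldha and P4ha1, for 8 of 34, beside 1734 of 13661 genes. Between these 2 groups, libraries with the same number deviated together at each number (r of 0.145, 0.246 and 0.387 over genes). Without the 2 replicate 3 libraries of NRF2 KO CM the counts were 11 of 34 for WT CM, beside 2595 of 13562 genes, and 15 of 34 for KEAP1 KO CM, beside 2951 genes. Aldoc, Eno1, Eno2, Gapdh, Gpi1, Ldha and Slc16a1 were those gained by WT CM.

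WT CM and NRF2 KO CM differed for 5 of 34 members, beside 10.7% of all genes: Slc16a1, Pfkp, Pfkfb4 and Ldha were higher with WT CM (beside 6.56%) and Ndrg1 was lower (beside 4.11%). Their ranges were apart for 10 members, beside 26.4%. A fit of those 6 libraries alone called no member, and leaving out 1 compared library moved the count between 2 and 9. KEAP1 KO CM and WT CM did not differ for any member in a limma fit of their 6 libraries, which called 0 of 12330 genes (0%); at an unadjusted p under 0.05 it had 7 members and 788 genes, and the groups did not overlap for 6 members, beside 12.6% of genes. Libraries of the same number deviated together between these groups (r of 0.15, 0.354 and 0.474 over genes), and with the replicate number as a block 50 of 12330 genes and 0 members were called with limma. Hif1a, the oxygen-regulated HIF subunit, was 53.2, 50.9 and 53.4 TPM in WT CM/vehicle and 63.3, 60.9 and 66.2 TPM in KEAP1 KO CM/vehicle. The groups did not overlap, with a difference of 0.28 (95% interval 0.14 to 0.41, adjusted p = 0.633 with limma). Ldha differed by 0.18 (95% interval 0.05 to 0.32, adjusted p = 0.683 with limma) and Slc2a1 by 0.23 (95% interval −0.05 to 0.50, adjusted p = 0.792 with limma). For 31 of the 34 members the 95% interval lay within 1 log2 unit of 0, so that larger differences between these media were outside it.

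The second question was what CDDO-Me did to the same genes in each medium. In WT CM it raised 12 members and lowered 2, 14 of 34 beside 27.8% of all genes. In KEAP1 KO CM it raised 13 and lowered 3, 16 of 34 beside 28.8%. In media it changed 2 of 34 beside 6.01%, raising Slc2a1 and Pkm (beside 3.07% called higher) and lowering none (beside 2.94%). In NRF2 KO CM it changed 4 beside 9.77%, raising Slc2a1, Aldoa, Pfkfb4 and Pkm (beside 4.49%) and lowering none (beside 5.28%). In the 2 larger responses the calls leaned upward: 12 and 13 members rose, beside 13.9% and 14.5% of all genes called higher, while 2 and 3 fell, beside 13.9% and 14.2% called lower. Treated and vehicle groups did not overlap for 27 members in WT CM (beside 50.9% of all genes), 25 in KEAP1 KO CM (beside 49.9%), 13 in media (beside 31.1%) and 9 in NRF2 KO CM (beside 17%). The member medians were 0.43 in WT CM, 0.51 in KEAP1 KO CM, 0.01 in media and 0.18 in NRF2 KO CM, and those of all genes were close to 0. Without scaling between libraries, the medians of all genes moved to −0.12 in WT CM and −0.17 in KEAP1 KO CM, and 39.1% and 34.6% of all calls were upward, against 49.9% and 50.5% with it.

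Summed over the 24 glycolysis members, the share of a library's TPM was 0.731 to 0.784% in media/vehicle, 0.785 to 0.884% in WT CM/vehicle and 0.850 to 1.02% in KEAP1 KO CM/vehicle. With CDDO-Me it was 0.938 to 0.996% in media, 1.24 to 1.27% in WT CM and 1.25 to 1.41% in KEAP1 KO CM, each range above its vehicle range. NRF2 KO CM went from 0.619 to 0.865% under vehicle to 0.953 to 1.09% under CDDO-Me. Aldoa, Gapdh and Pkm are the most abundant members and weigh most in this sum. The plot of CDDO-Me effects sets the 4 media side by side for the members called in any of them.

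**Figure D2:**
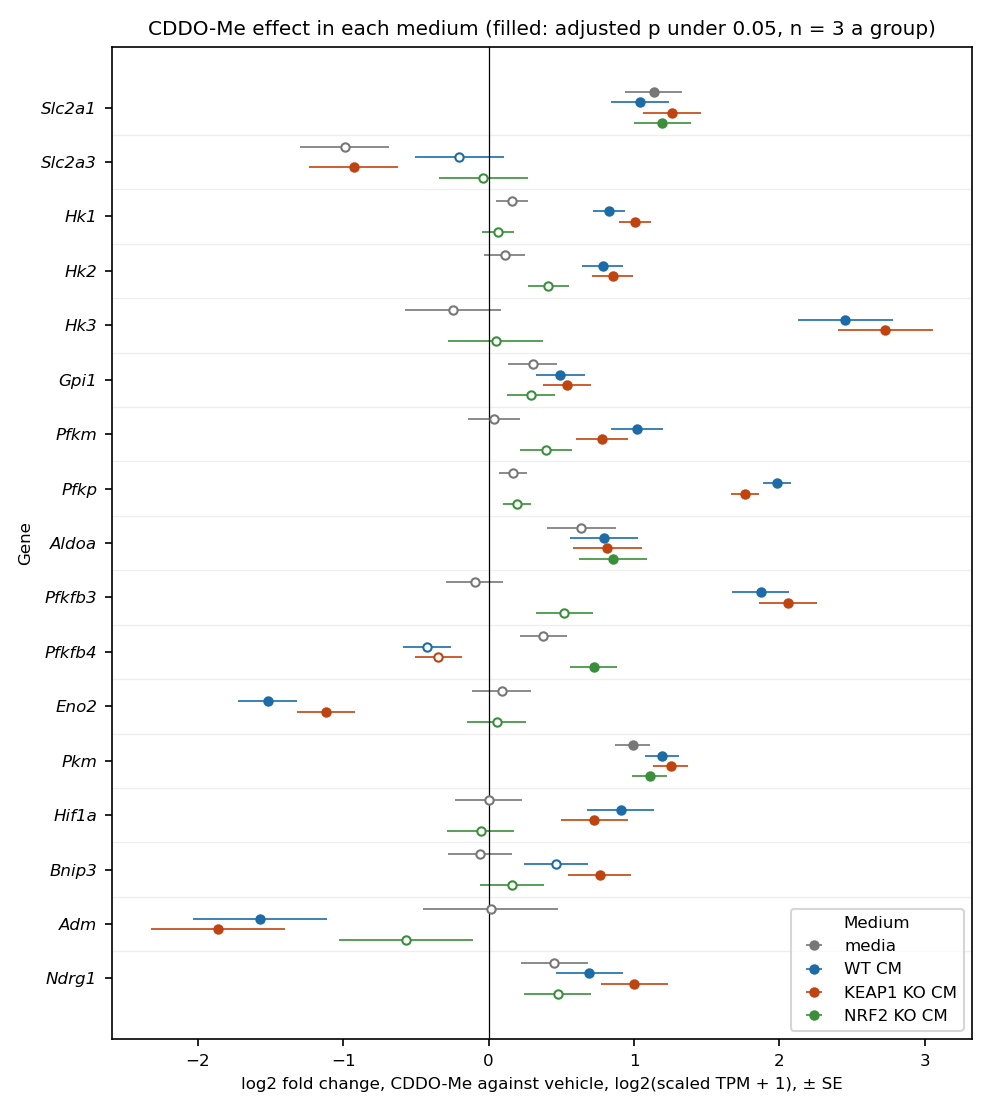
Log2 fold change of CDDO-Me against vehicle (horizontal axis, ± SE) of the 17 members called in at least 1 medium, with 1 colour for each medium and filled points for an adjusted p under 0.05 (n = 3 a group). Slc2a1 and Pkm lie between 0.99 and 1.26 in all 4 media, while Hk3, Pfkp and Pfkfb3 lie between 1.77 and 2.73 in WT CM and KEAP1 KO CM alone.

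Slc2a1 and Pkm rose in each medium. Slc2a1 (chr4:118965908-118996365, plus strand, GRCm39) went from 32.8, 32.7 and 32.1 to 70.8, 70.7 and 76.5 TPM in media and from 32.9, 37.3 and 30.1 to 74.3, 72.9 and 62.5 TPM in WT CM. In KEAP1 KO CM it went from 41.0, 41.6 and 34.6 to 130, 88.4 and 74.2 TPM, and in NRF2 KO CM from 35.6, 36.7 and 20.5 to 81.2, 73.7 and 57.2 TPM. Every treated library was above every vehicle library. The differences were 1.14, 1.04, 1.26 and 1.20 in that order of media, each with an SE of 0.20 and with adjusted p from 4.54e-05 to 0.000952 with limma.

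Pkm, pyruvate kinase of the last step of glycolysis (chr9:59563364-59586663, plus strand, GRCm39), was between 883 and 1286 TPM in all 12 vehicle libraries and between 2021 and 3134 TPM in all 12 CDDO-Me libraries. It is spliced into the PKM1 and PKM2 forms, which the gene-level values join. Its differences were 0.99 in media, 1.19 in WT CM, 1.25 in KEAP1 KO CM and 1.11 in NRF2 KO CM, each with an SE of 0.12 and adjusted p from 8.12e-08 to 1.72e-05 with limma. Whether these differ between media was tested for media against each CM, and neither gene passed. Aldoa, the main aldolase, rose in WT CM, KEAP1 KO CM and also NRF2 KO CM. In media it went from 1405, 1333 and 1230 to 2022, 2003 and 2146 TPM without overlap and without a call. Each of its calls was lost without the scaling between libraries.

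Hexokinases phosphorylate glucose as it enters the cell, and all 3 members rose with CDDO-Me in WT CM and KEAP1 KO CM. Hk3, the myeloid hexokinase (chr13:55153798-55169276, minus strand, GRCm39), had the largest rise of any member, from 209, 205 and 267 to 1217, 1195 and 1305 TPM in WT CM. In KEAP1 KO CM it went from 171, 166 and 181 to 1114, 1125 and 1207 TPM. In media it was 234, 212 and 227 TPM under vehicle and 173, 170 and 229 TPM under CDDO-Me, and these overlapped. NRF2 KO CM was at 196, 161 and 49.5 TPM under vehicle and 145, 147 and 81.1 TPM under CDDO-Me, where replicate 3 was the lowest of both groups. The rise was 2.45 (SE 0.33, adjusted p = 7.12e-06) in WT CM and 2.73 (SE 0.33, adjusted p = 1.9e-06) in KEAP1 KO CM with limma.

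Hk1 and Hk2 moved less. Hk1, the widely expressed form, went from 45.1, 40.4 and 44.4 to 79.1, 74.4 and 79.3 TPM in WT CM (0.83, SE 0.11, adjusted p = 7.5e-06 with limma) and from 45.3, 42.8 and 43.4 to 90.3, 88.9 and 88.0 TPM in KEAP1 KO CM (1.01, SE 0.11, adjusted p = 6.31e-07 with limma). Hk2, the form most often tied to HIF, went from 15.3, 13.3 and 14.4 to 27.3, 26.1 and 23.0 TPM in WT CM (0.78, SE 0.14, adjusted p = 0.000212 with limma) and rose by 0.85 in KEAP1 KO CM. As a share of the 3 hexokinases' TPM, which does not depend on scaling, Hk3 held 77.5 to 82.0% in WT CM/vehicle and 92.0 to 92.7% in WT CM/CDDO-Me. In KEAP1 KO CM the share went from 73.4 to 76.6% up to 90.4 to 91.5%, and in media from 78.7 to 79.6% to 72.9 to 77.1%. In WT CM and KEAP1 KO CM, the rise in hexokinase transcripts with CDDO-Me was therefore mostly Hk3.

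Phosphofructokinase shifted in the same media toward Pfkp. Pfkp went from 69.5, 68.3 and 64.2 to 262, 264 and 282 TPM in WT CM and from 58.2, 67.1 and 53.0 to 199, 200 and 213 TPM in KEAP1 KO CM. In media it was 49.1, 50.1 and 53.7 TPM with CDDO-Me, and in NRF2 KO CM 41.0, 42.8 and 50.8 TPM, so that the treated libraries of these 2 media lay below even the vehicle libraries of WT CM. The rise of 1.98 (SE 0.10, adjusted p = 4.97e-12) in WT CM and of 1.77 (SE 0.10, adjusted p = 2.64e-11) in KEAP1 KO CM had the smallest p of the members with limma. Pfkp held 48.8 to 58.2% of the 3 phosphofructokinases' TPM in WT CM/vehicle and 73.2 to 78.5% with CDDO-Me, and 44.0 to 44.9% against 64.1 to 73.6% in KEAP1 KO CM.

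Pfkm, the muscle form, also rose in WT CM, from 13.5, 12.2 and 11.0 to 24.1, 25.1 and 28.1 TPM (1.02, SE 0.18, adjusted p = 0.000166 with limma), and in KEAP1 KO CM. Pfkl, the liver form, had no call in any of the 13 comparisons, and its replicate 3 was the lowest library in all 8 groups. Gpi1, which makes fructose 6-phosphate, rose by 0.49 and 0.54 in WT CM and KEAP1 KO CM, the smallest of the called differences, and its call in WT CM was lost without any 1 of the 6 compared libraries.

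Of the 2 regulators of fructose 2,6-bisphosphate, Pfkfb3 (chr2:11476244-11558888, minus strand, GRCm39) rose in WT CM and KEAP1 KO CM. Pfkfb4 was lower with CDDO-Me in both media, without overlap and without a call. It went from 53.2, 55.9 and 59.6 to 42.3, 39.3 and 43.2 TPM in WT CM. In KEAP1 KO CM it went from 46.3, 46.5 and 53.0 to 34.5, 38.5 and 41.1 TPM. Pfkfb3 went from 24.4, 20.5 and 19.9 to 82.9, 71.4 and 91.5 TPM in WT CM and from 20.3, 20.5 and 21.6 to 88.5, 80.3 and 102 TPM in KEAP1 KO CM. In media it stayed at 23.6 to 25.4 TPM, and in NRF2 KO CM it was 30.4, 24.2 and 58.1 TPM, the last again replicate 3. The differences were 1.87 (SE 0.20, adjusted p = 3.18e-07) in WT CM, 2.06 (SE 0.20, adjusted p = 9.12e-08) in KEAP1 KO CM and, without a call, 0.52 (SE 0.20, adjusted p = 0.113) in NRF2 KO CM, with limma. Pfkfb4 was called in NRF2 KO CM, from 37.6, 33.1 and 18.8 to 48.1, 49.2 and 46.3 TPM (0.72, SE 0.16, adjusted p = 0.00642 with limma). In media it was 36.7, 35.8 and 41.2 TPM under vehicle and 45.8, 47.9 and 55.0 TPM under CDDO-Me, without overlap and without a call, and it passed there without the 2 replicate 3 libraries of NRF2 KO CM. Pfkfb3 thus went from 25.0 to 31.5% of the summed TPM of this pair in WT CM/vehicle to 64.5 to 67.9% with CDDO-Me.

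**Figure D3:**
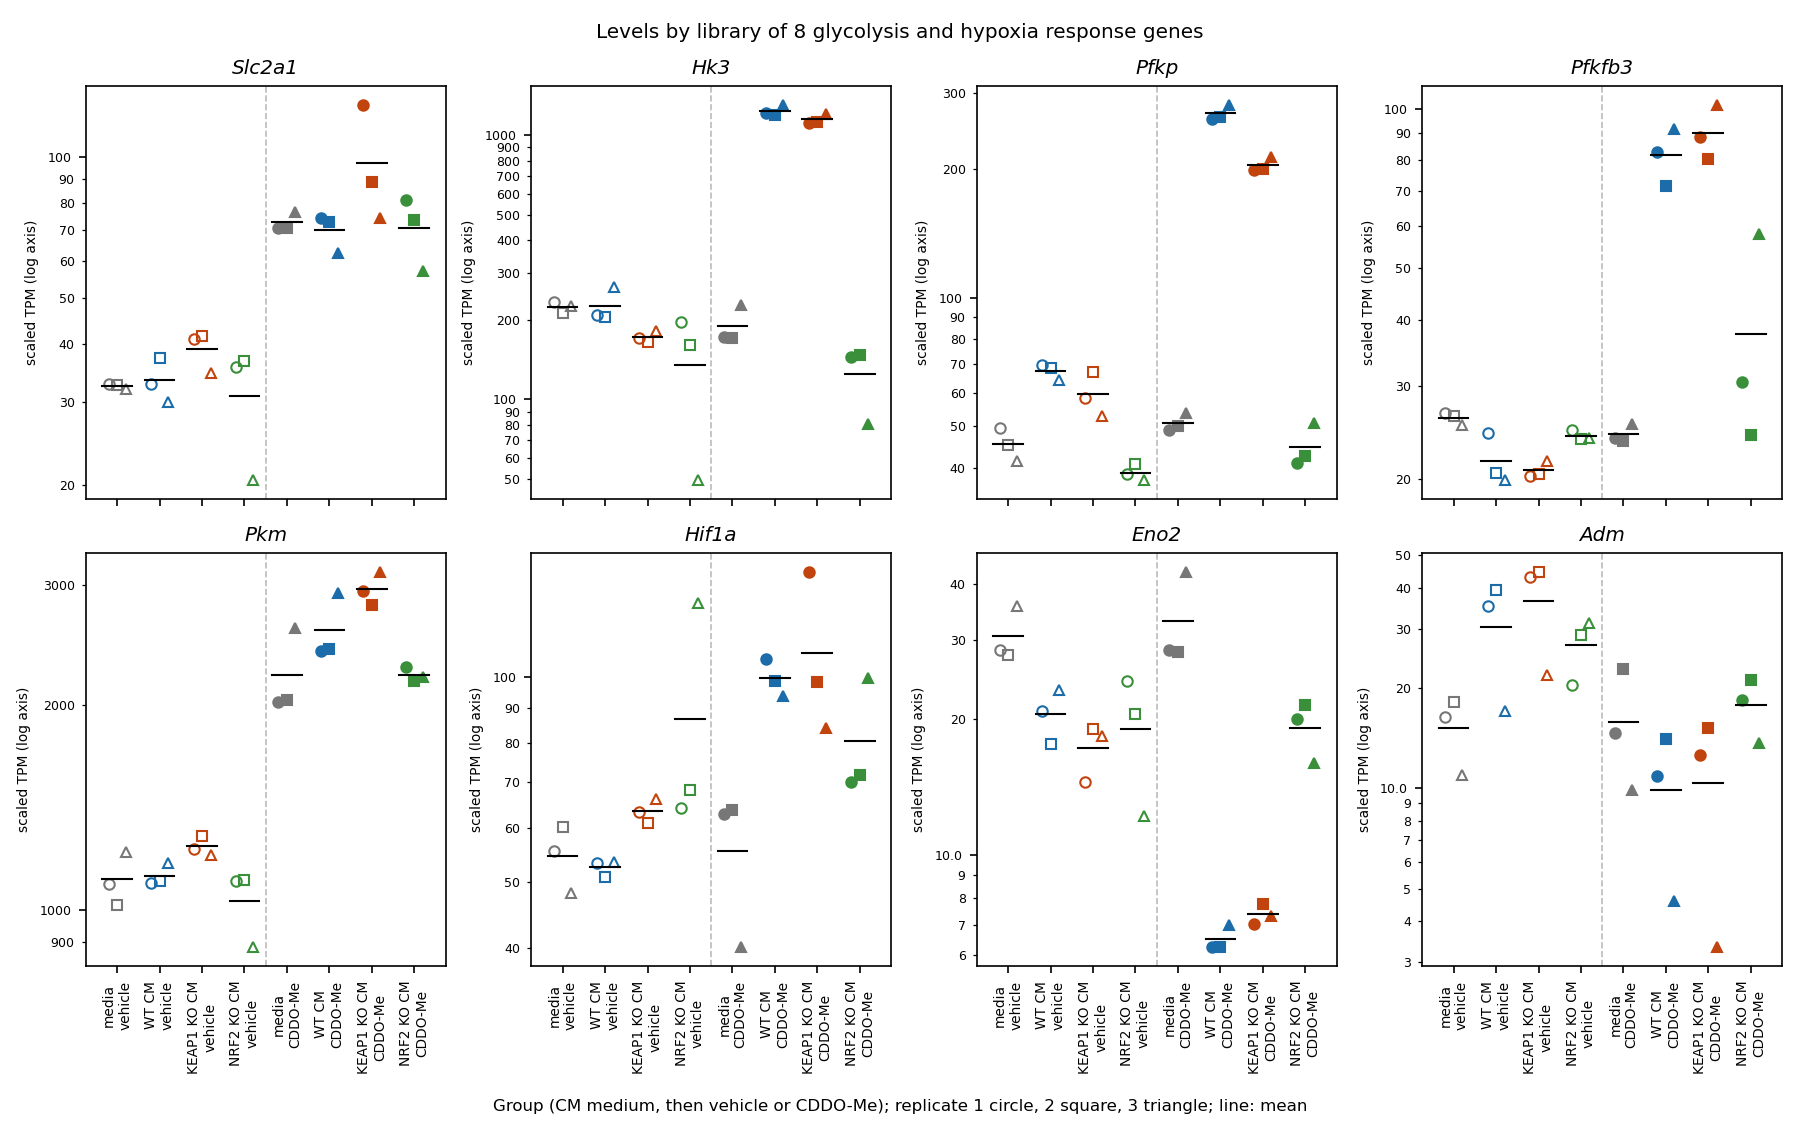
Scaled TPM (vertical log axis) of 8 members in each of the 24 libraries, grouped by medium with vehicle left and CDDO-Me right of the dashed line; symbols give the replicate number and lines the mean of 3. Hk3, Pfkp and Pfkfb3 are high in the 6 libraries of WT CM and KEAP1 KO CM with CDDO-Me, Slc2a1 and Pkm are high in all 12 CDDO-Me libraries, and Eno2 is lowest in those 6 libraries, at 6.23 to 7.79 TPM.

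In lower glycolysis, Eno2 fell while the main enolase, Eno1, had no call. Eno1 was nonetheless higher in each treated library of WT CM, at 821, 832 and 761 TPM against 705, 714 and 664 TPM. Its groups did not overlap in media either, with CDDO-Me higher, and they overlapped in KEAP1 KO CM. Eno2 went from 20.8, 17.7 and 23.3 to 6.23, 6.23 and 7.00 TPM in WT CM (−1.52, SE 0.20, adjusted p = 6.45e-06 with limma) and from 14.5, 19.1 and 18.3 to 7.02, 7.79 and 7.31 TPM in KEAP1 KO CM (−1.12, SE 0.20, adjusted p = 0.000207 with limma). In media it was 28.5, 28.3 and 42.5 TPM with CDDO-Me, within reach of its vehicle libraries. Eno2 was a minor part of enolase throughout, at 2.41 to 3.39% of Eno1 and Eno2 TPM in WT CM/vehicle and 0.744 to 0.911% in WT CM/CDDO-Me.

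Gapdh, the enzyme of the first oxidation step and often a reference gene for qPCR, was not level across groups. It was 1545, 1426 and 1356 TPM in media/vehicle, 1947, 1908 and 1648 TPM in WT CM/vehicle and 2843, 2593 and 2546 TPM in WT CM/CDDO-Me, with no overlap among the 3 groups. KEAP1 KO CM went from 2014, 2020 and 1823 to 3005, 2882 and 2524 TPM. Replicate 3 of NRF2 KO CM broke this order, at 2891 TPM under vehicle and 3484 TPM under CDDO-Me against 1601 to 1814 TPM in its fellow libraries. With them in the fit the CDDO-Me differences of 0.54 (SE 0.22, adjusted p = 0.0808) in WT CM and 0.52 (SE 0.22, adjusted p = 0.0905) in KEAP1 KO CM did not pass with limma, and without them both passed.

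Pgk1, Tpi1, Slc16a3 and Pdk1 did not pass for CDDO-Me in WT CM or KEAP1 KO CM, and each passed in both when the same 2 libraries were left out. Pgk1, which makes ATP in lower glycolysis, was 523, 551 and 488 TPM in WT CM/vehicle and 896, 835 and 764 TPM in WT CM/CDDO-Me. Slc16a3, the lactate exporter MCT4, was 69.1, 67.7 and 47.2 TPM against 107, 106 and 81.0 TPM. For both genes the WT CM groups did not overlap, while replicate 3 of NRF2 KO CM/vehicle was at 183 TPM for Pgk1 and 15.7 TPM for Slc16a3. Pdk1, the kinase that shuts pyruvate dehydrogenase, was 30.1, 27.4 and 33.5 TPM against 34.9, 38.4 and 53.4 TPM. Ldha, in contrast, was 887, 923 and 903 TPM against 807, 837 and 751 TPM, lower in each treated library of WT CM and without a call in any of the 4 media. Pgam1 had no call in any comparison.

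Without those 2 libraries, CDDO-Me called 25 of 34 members in WT CM, beside 5926 of 13562 genes, and 25 in KEAP1 KO CM, beside 6145 genes. In media the count was 10 instead of 2, beside 2118 genes, with Aldoa, Eno1, Gpi1, Hk1, Ldha, Pfkfb4, Slc16a1 and Slc2a3 added. In NRF2 KO CM it was 5, beside 1352 genes, with Gpi1 added. With the replicate number as a block, CDDO-Me called 5 in media (Aldoa, Epas1 and Ndrg1 added), beside 1466 of 13661 genes, and 7 in NRF2 KO CM (Epas1, Hk2 and Ndrg1 added), beside 1988 genes. In these 2 media libraries of the same number deviated together at each number, with r of 0.156 to 0.452 in media and 0.504 to 0.717 in NRF2 KO CM. A fit of the 6 NRF2 KO CM libraries alone called no member.

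**Figure D4:**
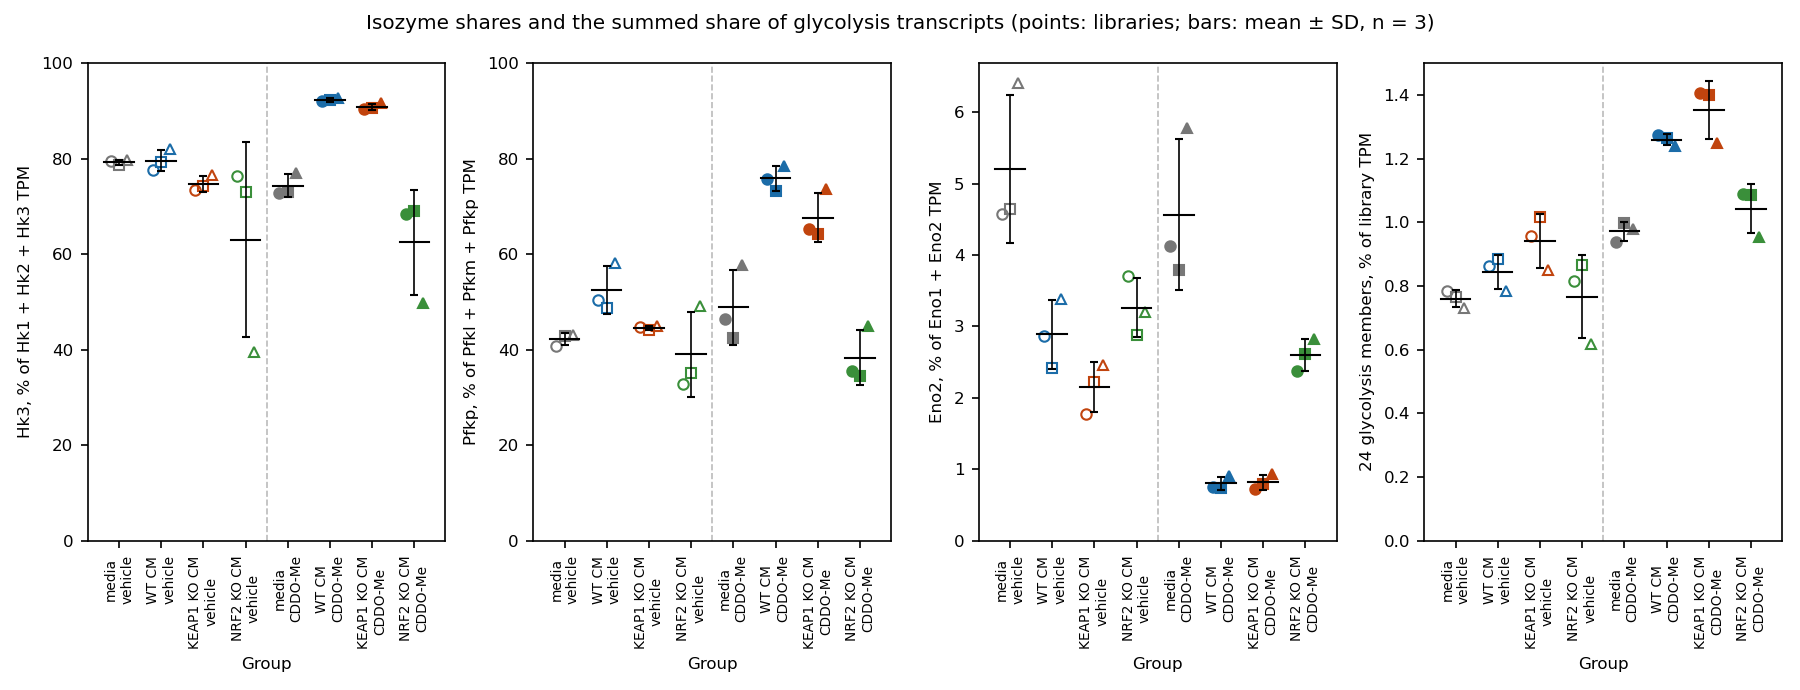
The first 3 panels give, in each library, the percentage of an enzyme's TPM held by Hk3, Pfkp or Eno2 (vertical axes from 0), and the last panel the percentage of all TPM held by the 24 glycolysis members; points are libraries and bars the mean ± SD of 3. Hk3 reaches 92.0 to 92.7% and Pfkp 73.2 to 78.5% in WT CM/CDDO-Me, and the summed share there is 1.24 to 1.27%.

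Among the HIF subunits, Hif1a rose with CDDO-Me in WT CM, from 53.2, 50.9 and 53.4 to 106, 98.5 and 93.9 TPM (0.91, SE 0.23, adjusted p = 0.00473 with limma), and in KEAP1 KO CM, from 63.3, 60.9 and 66.2 to 143, 98.4 and 84.1 TPM (0.73, SE 0.23, adjusted p = 0.0209 with limma). No treated library overlapped a vehicle library in either medium. In KEAP1 KO CM the call was lost without 3 of the 6 compared libraries in turn. Media were at 55.4, 60.1 and 48.1 TPM under vehicle and 62.9, 63.7 and 40.1 TPM under CDDO-Me. In NRF2 KO CM/vehicle replicate 3 was at 128 TPM against 64.3 and 68.1 TPM, and the difference of that group from media, 0.59 (SE 0.23), did not pass (adjusted p = 0.406 with limma).

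Epas1, which encodes the subunit HIF-2α, is named after its values were seen. It was 24.6, 30.3 and 10.1 TPM in WT CM/vehicle and 9.53, 9.88 and 3.96 TPM in WT CM/CDDO-Me, so that each replicate number was lower with CDDO-Me, and the groups did not overlap. KEAP1 KO CM went from 28.4, 33.3 and 13.6 to 12.6, 12.4 and 5.21 TPM. Differences of −1.32 (SE 0.50, adjusted p = 0.0541) and −1.23 (SE 0.50, adjusted p = 0.0719) did not pass with limma. Replicate 3 was the lowest library in all 8 groups, and both passed with the replicate number as a block and without the NRF2 KO CM replicate 3 libraries. Arnt, the constitutive partner of both subunits, was 26.4 to 34.4 TPM in all 24 libraries and had no call.

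The oxygen sensors showed no call. Egln1 (PHD2), the main HIF prolyl hydroxylase, was 24.3 to 43.0 TPM in all libraries. Egln3 (PHD3), which HIF induces in many cells, was scarce, at 0.709 to 4.83 TPM. Replicate 3 was the lowest of all 8 groups for Egln1 and of 7 for Egln3.

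Other HIF targets did not move as one with CDDO-Me. Adm (chr7:110226858-110229027, plus strand, GRCm39) fell in WT CM, from 35.2, 39.5 and 17.0 to 10.9, 14.1 and 4.59 TPM (−1.57, SE 0.46, adjusted p = 0.0138 with limma), and in KEAP1 KO CM, from 43.0, 44.6 and 21.8 to 12.6, 15.2 and 3.33 TPM (−1.86, SE 0.46, adjusted p = 0.00392 with limma). Ndrg1 rose in the same media, from 25.0, 21.3 and 28.6 to 40.1, 28.7 and 58.1 TPM in WT CM and from 21.0, 20.3 and 21.4 to 39.8, 33.7 and 58.4 TPM in KEAP1 KO CM (1.00, SE 0.23, adjusted p = 0.00207 with limma). Its rise in WT CM was 0.69 (SE 0.23, adjusted p = 0.0287 with limma). The WT CM call was lost with only the compared groups, without replicate 1 or 2 of WT CM/vehicle and without replicate 3 of WT CM/CDDO-Me. Bnip3, a mitophagy receptor, was called in KEAP1 KO CM, from 53.7, 54.5 and 45.9 to 110, 114 and 53.6 TPM, although its replicate 3 with CDDO-Me lay within the vehicle range (0.76, SE 0.22, adjusted p = 0.011 with limma). P4ha1, a collagen prolyl hydroxylase, and Ankrd37 had no call in any comparison. The fall of Slc2a3 was called in KEAP1 KO CM, to 0.865, 1.46 and 1.99 TPM from 3.29, 4.49 and 3.01 TPM, close to the pseudocount of 1. That call was lost in 6 of 16 alternatives, among them no filter and a pseudocount of 5. In media Slc2a3 went from 6.79, 5.95 and 8.21 to 3.21, 3.69 and 2.22 TPM (−0.99), without overlap and without a call. Its groups overlapped in WT CM and NRF2 KO CM.

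**Figure D5:**
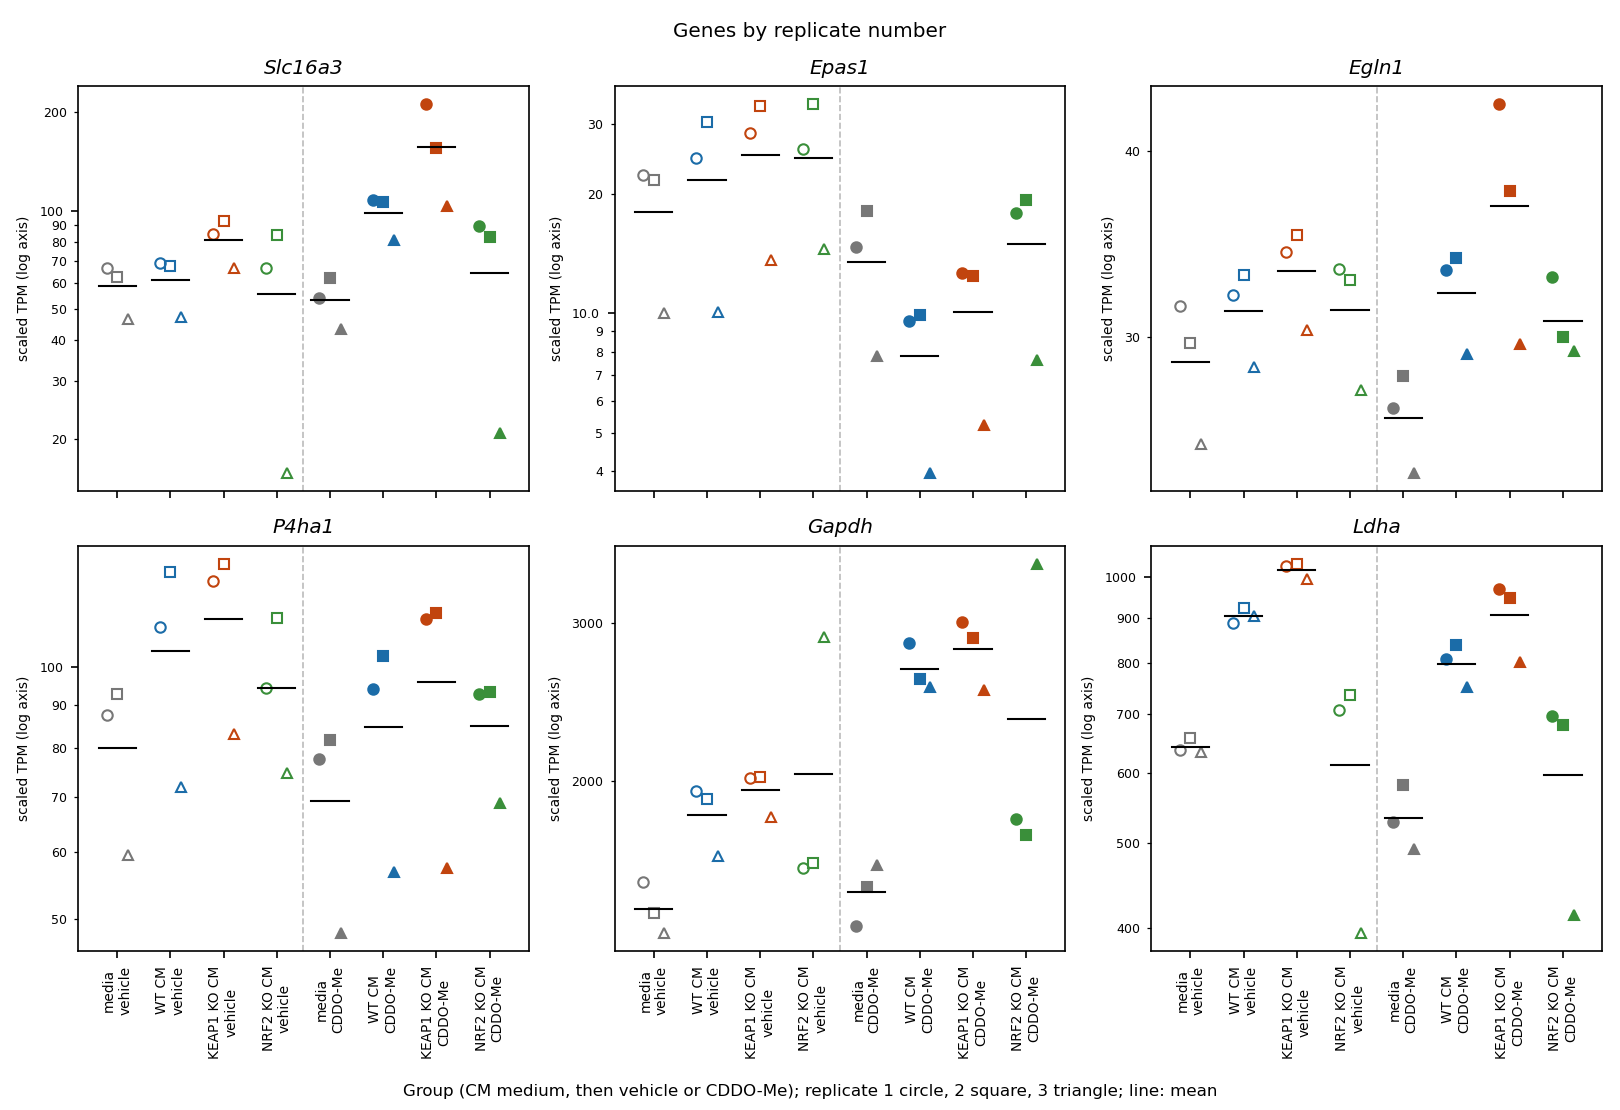
Scaled TPM (vertical log axis) of 6 members in the 24 libraries, with the replicate number as the symbol and lines for the mean of 3. Replicate 3 (triangles) is the lowest library in all 8 groups for Slc16a3, Epas1, Egln1 and P4ha1, and it is the highest in both NRF2 KO CM groups for Gapdh.

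The third question was whether the CDDO-Me response depended on the medium, tested as an interaction of all 24 libraries. Between WT CM and media 9 of 34 members differed, beside 15% of all genes: Hk1, Hk2, Hk3, Pfkm, Pfkp, Pfkfb3 and Pdk1 responded more positively in WT CM (beside 8.3%), and Pfkfb4 and Eno2 more negatively (beside 6.74%). Pdk1 was lower with CDDO-Me in media without a call, at 16.5, 21.7 and 21.0 TPM against 27.7, 24.2 and 24.3 TPM. Its interaction thus joins a fall in media and a rise in WT CM, neither of them called. Between KEAP1 KO CM and media 7 differed, beside 14.7%: Hk1, Hk2, Hk3, Pfkp and Pfkfb3 more positively (beside 8.38%), Pfkfb4 and Eno2 more negatively (beside 6.36%). For Adm the interactions were −1.59 (SE 0.65, adjusted p = 0.124) for WT CM and −1.88 (SE 0.65, adjusted p = 0.0617) for KEAP1 KO CM with limma. The latter passed without the 2 replicate 3 libraries of NRF2 KO CM, and the former did not. For Hif1a the interactions were 0.91 (SE 0.32, adjusted p = 0.0696) for WT CM and 0.73 (SE 0.32, adjusted p = 0.162) for KEAP1 KO CM with limma, and without the 2 replicate 3 libraries of NRF2 KO CM both passed.

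For the CDDO-Me response in NRF2 KO CM against that in media, no member was called, and no gene of all passed (0%) with limma. At an unadjusted p under 0.05 there were 2 members and 374 genes. The median 95% half-width of the members was 0.62, and for 22 of 34 the 95% interval lay within 1 log2 unit of 0. The response in NRF2 KO CM was not tested against that in WT CM. KEAP1 KO CM and WT CM also had no member and no gene (0%) past the threshold, with 0 members and 225 genes at an unadjusted p under 0.05. Member differences between these last 2 responses ran from −0.72 for Slc2a3 to 0.72 for Egln3, with a median 95% half-width of 0.62. For 27 of 34 members the 95% interval lay within 1 log2 unit of 0.

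Other genes of the same pathways, from lists of 28 further glycolysis and pyruvate genes and 32 further hypoxia response genes, were also read. Of 22 further glycolysis genes that could be tested, CDDO-Me raised 1 and lowered 3 in WT CM and in KEAP1 KO CM alike, with medians of −0.04 and −0.01. Over all genes 13.9% and 14.5% were called higher and 13.9% and 14.2% lower, so that the share of lowered genes in the list was near that of all genes. The lowered ones were Pdp1 and Pdp2, the phosphatases that switch the pyruvate dehydrogenase complex on, and Pdha1, its catalytic subunit. In WT CM, Pdp1 went from 29.6, 26.9 and 39.1 to 13.4, 12.9 and 15.1 TPM (−1.14, SE 0.19, adjusted p = 8.3e-05 with limma). Pdp2 differed by −0.89 (SE 0.13, adjusted p = 1.42e-05 with limma), and Pdha1 by −0.27 (SE 0.08, adjusted p = 0.0142 with limma). Pdha1 had risen with CM alone, by 0.38 with WT CM and 0.61 with KEAP1 KO CM. With WT CM against media 1 of 22 was higher (beside 4.33% of all genes), with KEAP1 KO CM 3 (beside 4.65%), and with WT CM against NRF2 KO CM 1 (beside 6.56%), Slc2a6, a lysosomal sugar transporter of macrophages (1.85, SE 0.49, adjusted p = 0.019 with limma). The Slc2a6 call was lost in 5 of 17 alternatives. Among them were only the compared groups and leaving out the replicate 3 libraries of NRF2 KO CM.

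Of 30 further hypoxia response genes tested, CDDO-Me raised 3 and lowered 3 in WT CM, and raised 5 and lowered 1 in KEAP1 KO CM, with medians of 0.03 and 0.07, beside the same shares of all genes called higher and lower. Bhlhe40, a transcriptional repressor that hypoxia induces, had the largest fall, from 87.5, 106 and 158 to 7.73, 9.75 and 4.83 TPM in WT CM (−3.81, SE 0.25, adjusted p = 4.8e-10 with limma). It had risen with WT CM from 42.0, 43.8 and 51.0 TPM in media (1.30, SE 0.25, adjusted p = 0.00232 with limma), and no group overlapped another. Vhl, the ligase subunit that targets HIF-1α for destruction, rose from 17.4, 14.7 and 18.8 to 43.5, 45.3 and 39.6 TPM in WT CM (1.29, SE 0.11, adjusted p = 2.05e-08 with limma). Cited2, which competes with HIF-1α for its coactivator, rose from 113, 112 and 99.5 to 244, 251 and 305 TPM (1.29, SE 0.16, adjusted p = 2.13e-06 with limma). Vegfa, a classic HIF target, was called in KEAP1 KO CM alone among the 4 media (0.90, SE 0.28, adjusted p = 0.0176 with limma). The difference between that response and the one in media was larger, at 1.77, since Vegfa was lower with CDDO-Me in media, without a call.

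Gbe1, the glycogen branching enzyme, was listed among the hypoxia genes and rose in all 4 media. In media it went from 11.0, 10.0 and 9.40 to 51.5, 47.7 and 49.2 TPM (2.18, SE 0.22, adjusted p = 1.78e-06 with limma), and in WT CM from 10.1, 9.66 and 9.15 to 27.3, 27.7 and 19.9 TPM (1.27, SE 0.22, adjusted p = 0.000122 with limma). The differences were 1.66 in KEAP1 KO CM and 2.10 in NRF2 KO CM. Like Slc2a1 and Pkm it was higher in every treated library than in every vehicle library of the same medium.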

How the data were processed

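RNA was measured in 24 libraries of murine BMDMs, 3 in each of 8 groups, assigned from the sample labels. The authors had poly-A libraries sequenced as paired ends, ran Kallisto against the GRCm39 transcriptome, and used TMM normalization and limma. CM, conditioned for 48 h, made up 75% of the medium. The deposited values are TPM per gene name, although the file was named as counts. Read numbers are not held, so the depth of each library is unknown and intervals that need it are left out. A line without a gene name (0.0199 to 0.0635% of TPM) was left out.

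TPM were divided by unweighted TMM factors (30% of M and 5% of A values trimmed). The log2 value of scaled TPM + 1 was fitted with limma 3.58.1 (R 4.3.3, eBayes with trend) over all 24 libraries (13661 genes, 16 residual degrees of freedom). KEAP1 KO CM against WT CM under vehicle was fitted on its 6 libraries (12330 genes, 4 degrees of freedom). Two-sided p-values were adjusted by Benjamini-Hochberg over every gene of a comparison, with 0.05 as the threshold. Where animals or cultures are not named for each library, they measure the spread between these samples only, which may be technical. The fits were tested on simulated data. Promoter windows were searched and figures drawn with Python 3.11.15 and matplotlib 3.10.9.

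The members and lists were chosen with earlier results of these data known. Fold changes and p-values are given for members past the threshold, for the 10 with the largest absolute change where more than 10 passed, for Slc2a1, Hk2, Pfkfb3, Ldha, Gapdh, Hif1a, Bnip3 and Egln3, and for up to 4 genes of each further list; other genes were named after their values were seen. Same-numbered libraries of 2 groups deviated together, with a mean r of 0.256 over 84 pairs. Deviations were taken from the mean of each group, which ties the r of different numbers (mean −0.121) to that of same numbers. The former is therefore no separate evidence. The labels state no pairing, and the numbers were taken to pair the samples where all 3 pairs exceeded 0.1, a limit set here. Alternatives were other scaling, filters, pseudocounts, no trend, array weights, the replicate block, only the compared groups, and libraries left out. Fold changes of low genes are understated by the pseudocount.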

Additional observations from a re-analysis of the deposited data

Results flagged for a closer look

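Genes whose response to CDDO-Me differed between a CM and media in a test of the difference itself (limma interaction, 24 libraries) are given with the interaction on the log2 scale. For WT CM the values were 0.67 for Hk1, 0.67 for Hk2, 2.70 for Hk3, 0.98 for Pfkm, 1.82 for Pfkp, 1.97 for Pfkfb3 and 0.80 for Pdk1. They were −0.80 for Pfkfb4 and −1.61 for Eno2. Adjusted p ran from 7.97e-09 for Pfkp to 0.0405 for Pdk1.

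For KEAP1 KO CM the values were 0.85 for Hk1, 0.74 for Hk2, 2.97 for Hk3, 1.60 for Pfkp and 2.16 for Pfkfb3, and −0.72 for Pfkfb4 and −1.21 for Eno2. Adjusted p ran from 4.84e-08 for Pfkp to 0.0409 for Pfkfb4. Both sets of interactions share the media libraries. The call of Pdk1 for WT CM was lost without 8 of the 12 libraries in turn, and that of Pfkfb4 for KEAP1 KO CM without 9 of the 12.

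Of the further glycolysis genes, Pdp1 differed by −0.94 with WT CM and −0.91 with KEAP1 KO CM, and Pdha1 by −0.49 with KEAP1 KO CM. Of the further hypoxia response genes, Bhlhe40 differed by −3.82 with WT CM and −3.29 with KEAP1 KO CM, Vhl by 0.99 and 0.76, and Vegfa by 1.36 and 1.77. Cited2 differed by 1.00 for WT CM and Plod1, a lysyl hydroxylase, by 0.66 for KEAP1 KO CM, the latter with an adjusted p of 0.0447 with limma that did not pass in 16 of its alternatives.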

How the results depend on the processing

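The number of members called moved with several settings, and the number called among all genes, given in brackets, moved too. For WT CM against media (4 members) it was 2 without the filter (945 genes), 14 with array weights (4126), 8 with the replicate block (1734), 10 with only the compared groups (2044) and 11 without the NRF2 KO CM replicate 3 libraries (2595). For KEAP1 KO CM against media (5 members) it was 24 with array weights (5024 genes), 9 with the block (1770), 14 with only the compared groups (2186) and 15 without those 2 libraries (2951). For WT CM against NRF2 KO CM (5 members) it was 3 without the filter (1254 genes) and 0 with only the compared groups (162), and for KEAP1 KO CM against WT CM (0) it was 4 with array weights (446). CDDO-Me in media (2 members) gave 11 with array weights (3590 genes), 5 with the block (1466), 7 with only the compared groups (1606) and 10 without those 2 libraries (2118). In WT CM (14 members) it gave 28 with array weights (7140 genes), 22 with only the compared groups (5029) and 25 without those libraries (5926). With KEAP1 KO CM (16 members) it gave 27 with array weights (7017 genes) and 25 without those libraries (6145). In NRF2 KO CM (4 members) it gave 9 with array weights (3033 genes), 7 with the block (1988) and 0 with only the compared groups (142). The interaction of WT CM (9 members) gave 18 with array weights (5394 genes), 15 with only the compared groups (3684) and 15 without those libraries (3916). That of KEAP1 KO CM (7 members) gave 21 with array weights (5376 genes), 13 with the block (2919), 12 with only the compared groups (3450) and 16 without those libraries (4040). Adm and Epas1 were among the genes the block called in both interactions. Leaving out 1 library gave 1 to 2, 2 to 3 and 0 members for WT, KEAP1 KO and NRF2 KO CM against media, 2 to 9 for WT CM against NRF2 KO CM, 0 for KEAP1 KO CM against WT CM, 2, 11 to 14, 11 to 17 and 3 to 5 for CDDO-Me in media and in WT, KEAP1 KO and NRF2 KO CM, and 6 to 8 for both interactions with calls. The cause of these shifts was not tested. Between vehicle and CDDO-Me the same-number r were 0.062, 0.334 and 0.373 in WT CM and 0.094, 0.359 and 0.421 in KEAP1 KO CM. The first r of each was under the limit of 0.1 set here for pairing, while the others exceeded it. Pairing of these samples is thus not excluded. With the replicate block CDDO-Me called 21 members in WT CM (4633 genes) and in KEAP1 KO CM (4819), against 14 and 16 without it. Without scaling, 48.2% of calls were upward for WT CM against media (58.9% with it), 44.2% for WT CM against NRF2 KO CM (61.5%), 46.2% for the WT CM interaction (55.2%) and 40.5% for that of KEAP1 KO CM (56.9%). Over 127 results of single genes and 2340 alternatives, 2049 kept their direction and side of the threshold, 244 lost the call, 47 gained one and 0 reversed. Slc2a1 and Pkm in media and Hk3, Pfkp, Pfkfb3, Eno2 and Pkm with CDDO-Me in WT CM and KEAP1 KO CM kept their calls under all alternatives run.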

Other observations

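Replicate 3 was the lowest library in all 8 groups for 6 of the 34 members, Slc16a3, Pfkl, Tpi1, Epas1, Egln1 and P4ha1. For Slc2a1, Aldoa, Pgk1, Eno1, Ldha, Egln3 and Adm it was the lowest in 7 of the 8 groups. The summed fibroblast markers were lowest in replicate 3 of each group too, with Col1a1 at 480, 488 and 265 TPM in media/vehicle and 229, 272 and 60.1 TPM in KEAP1 KO CM/CDDO-Me; their part was not tested. In NRF2 KO CM the glucose transporter pair also differed by replicate, with Slc2a3 at 3.02, 2.90 and 7.35 TPM under CDDO-Me.

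Slc2a6 was 32.3, 24.3 and 46.1 TPM in WT CM/vehicle and 28.7, 30.2 and 40.0 TPM in KEAP1 KO CM/vehicle, above the 13.1, 10.7 and 15.8 TPM of media/vehicle, without a call against media. A single library of KEAP1 KO CM/CDDO-Me, replicate 1, held 76.3 TPM against 19.2 and 36.9 TPM in the others. The same library had the highest level of Slc2a1, Slc16a3, Hif1a and Egln1 of all 24.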
